A study of Mus musculus with 4 samples.

Results

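Peptidylarginine deiminases are enzymes that turn arginine residues of proteins into citrulline, and small proline-rich proteins are building blocks of the cornified envelope of skin. The genes described here are 4 deiminase genes (Padi1, Padi2, Padi3 and Padi4) and 6 small proline-rich genes (Sprr1a, Sprr2d, Sprr2e, Sprr2f, Sprr2g and Sprr2h). They were picked by symbol, and all 10 were found among the 54838 genes with symbols. The choice was made with the difference in expected counts between knockdown and control libraries already known, so the values of these 10 genes are given as a description, without a test. Of the 10 genes, 8 passed the filter on low counts (at least 10 counts, or 0.511 CPM, a count scaled by library size, in 2 libraries). Among the 8, Sprr2e and Sprr2h passed it only through the knockdown libraries. Sprr2d and Sprr2f had 0 counts in every library.

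RNA sequencing compared mouse Hepa1-6 cells, a hepatocellular carcinoma line, in 2 groups of 2 libraries each. The knockdown group carried an shRNA against Setdb1 (titles Hp16_shSet-1 and Hp16_shSet-2, labelled a Setdb1 knockdown), and the control group carried an shRNA named NC (titles Hp16_shNC-1 and Hp16_shNC-2) and is labelled wild type for Setdb1. No other treatment, allele or time is given in the labels. The series text speaks of subclones without their number in a group, so a clone and the knockdown cannot be told apart, and since separate cultures are not stated, a p-value reflects no more than how far these libraries spread. Setdb1 is a histone methyltransferase known for silencing genes and retroelements, and the comparison asks which transcripts differ when it is reduced.

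Arginine loses its positive charge when a deiminase converts it, which changes how a protein folds and binds. Padi1 and Padi3 are known from the epidermis and hair follicle, Padi2 from brain, muscle and glands, and Padi4 from granulocytes, where it citrullinates histones. Sprr proteins are cross-linked by transglutaminases beneath the membrane of keratinocytes, and Sprr1a is also known from injured nerve and stressed heart muscle. Neither family is a hallmark of hepatocytes.

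Expected counts summed to 19513567 to 19615440 in a library, and 1 CPM (scaled by the TMM method) stood for about 19.6 counts. Setdb1 had 10.97 and 8.67 CPM in the knockdown libraries, against 51.5 and 58.5 CPM in the controls, a log2 fold change of -2.49 (SE 0.182; adjusted p = 1.50e-04 in edgeR's quasi-likelihood test). The libraries thus carried Setdb1 RNA as labelled. Among 12821 genes tested, edgeR called 5.96% at a threshold of 0.05 on the adjusted p, 4.2% of all being higher and 1.76% lower, and the median log2 fold change was -0.00519. Both knockdown libraries lay above both controls in 26.4% of the genes tested and below both in 25.2%.

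The deiminase with the most RNA was Padi3, an enzyme known to citrullinate trichohyalin and filaggrin in hair follicle and epidermis. Padi3 had 2669 and 2252 counts in the knockdown libraries, against 514 and 709 in the controls. On the CPM scale these were 136 and 116 in the knockdown libraries and 26.4 and 35.8 in the controls. Both knockdown libraries lay above both controls, and the lower knockdown value was 3.25 times the higher control value. Padi3 averaged 126 ± 14.1 CPM in knockdown cells and 31.1 ± 6.64 CPM in control cells (SD, n = 2 each), a fold of 4.06 in mean CPM (log2 ratio 2.02). The ratio of summed counts had a 95% exact binomial interval of 3.81 to 4.32, and such intervals cover counting error only. Padi3 ranked 2422 and 2806 among genes by TPM in the knockdown libraries, against 7006 and 6154 in the controls. In bulk RNA a change in the number of cells that carry a transcript and a change in RNA per cell cannot be told apart, here or below.

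Padi4, the deiminase known for histone citrullination and neutrophil extracellular traps, had little RNA. It had 59 and 56 counts in the knockdown libraries, against 20 and 26 in the controls, or 3.01 and 2.89 CPM against 1.03 and 1.31 CPM. The groups did not overlap, and the fold in mean CPM was 2.52 (95% counting interval 1.78 to 3.63). In TPM, which divides by the estimated transcript length, Padi4 had 2.15 and 2.04 in the knockdown libraries and 1.23 and 0.83 in the controls, a log2 ratio of 1.02 in place of 1.33. The estimated length itself was 1975 and 1982 bases in the knockdown libraries and 1307 and 2316 bases in the controls, so the length estimates of the controls lay on either side of the knockdown ones.

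Padi2, the most widely expressed deiminase of mammals, had 104 and 122 counts in the knockdown libraries, against 56 and 61 in the controls. It averaged 5.80 ± 0.698 CPM in knockdown cells and 2.98 ± 0.144 CPM in control cells (SD, n = 2 each), a fold of 1.95 (95% counting interval 1.55 to 2.46), with no overlap between the groups. An annotated antisense gene across its end, Gm13031, had 0 counts in all 4 libraries. A locus named by position in a Padi2 intron, on the opposite strand, had 5.14 and 10.55 counts in the knockdown libraries and 10.18 and 14.98 in the controls.

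Padi1, known from the upper epidermis, was the deiminase whose groups overlapped. It had 26.19 and 21.31 counts in the knockdown libraries, against 20.74 and 22.87 in the controls, a fold of 1.08 in mean CPM (95% counting interval 0.699 to 1.66). Its counts were fractional in all 4 libraries. Gm13032, a processed transcript on the opposite strand that overlaps exons of Padi1, had 26.81 and 13.69 counts in the knockdown libraries and 15.26 and 14.13 in the controls. The strand setting of the counting is not given in the sources used here, so reads of the pair cannot be told apart with certainty. The egg-type deiminase Padi6, which was not among the 10 genes, had 1 count in 1 knockdown library and 0 elsewhere.

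**Figure D1:**
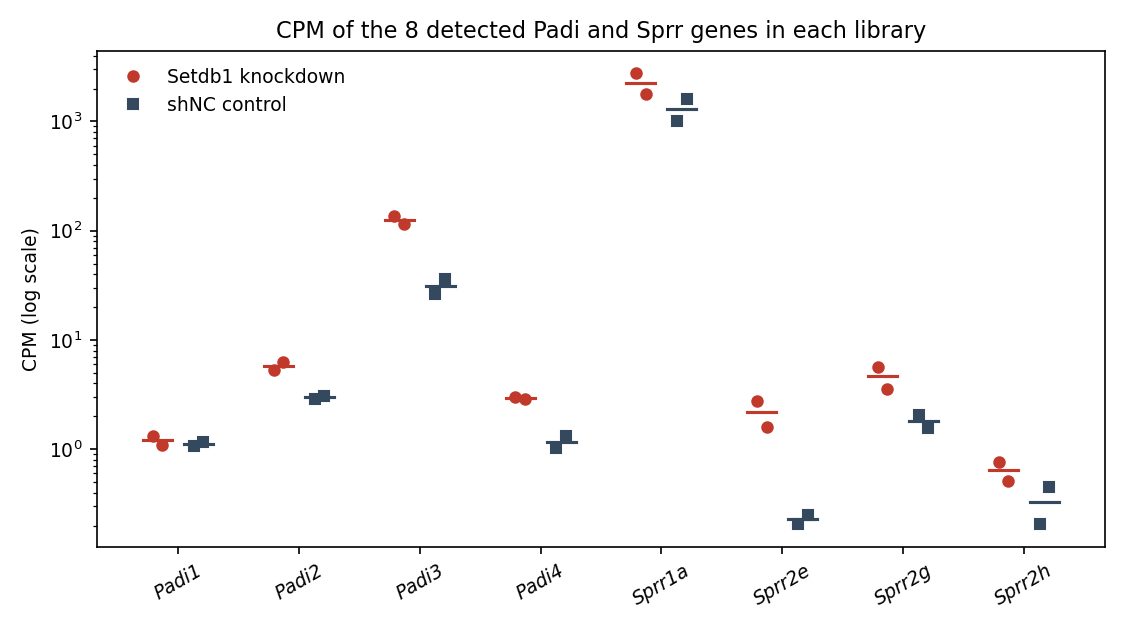
CPM of the 8 detected genes on a log axis, with 1 point for each library, knockdown left of control, and a line at each group mean; the 2 genes with 0 counts in every library are left out. Padi3 stands at 136 and 116 CPM in the knockdown libraries and at 26.4 and 35.8 CPM in the controls, while the points of Padi1 overlap near 1 CPM.

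Summed over the 4 deiminase genes, expression was 146 and 126 CPM in the knockdown libraries, against 31.4 and 41.3 CPM in the controls (log2 ratio 1.91). Padi3 made up 93.4% and 91.9% of the sum in the knockdown libraries and 84.1% and 86.6% in the controls. Without Padi3 the sum was 9.64 and 10.3 CPM in the knockdown libraries and 4.98 and 5.55 CPM in the controls. The 3 other deiminase genes together thus held less RNA than Padi3 in every library.

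Sprr1a, a cornified envelope precursor also induced in injured neurons and stressed heart muscle, was among the most abundant transcripts of these liver cancer cells. It had 54128 and 34656 counts in the knockdown libraries, against 19618 and 31775 in the controls. In TPM it had 6240 and 3997 in the knockdown libraries and 2314 and 3731 in the controls. By TPM it ranked 13 and 21 among genes in the knockdown libraries, against 65 and 35 in the controls. Both knockdown libraries lay above both controls, but the lower knockdown library exceeded the higher control by a factor of only 1.11. Within the knockdown group the libraries differed by a factor of 1.54, and within the control group by 1.59. Sprr1a averaged 2274 ± 689 CPM in knockdown cells and 1305 ± 422 CPM in control cells (SD, n = 2 each), a fold of 1.74. The fold between the groups was thus only a little above the factors within them, although counting error was small (95% counting interval 1.72 to 1.76). Leaving out single libraries gave log2 ratios from 0.45 (without knockdown 1) to 1.18 (without control 2), against 0.80 with all 4.

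The 5 listed Sprr2 genes, which encode shorter cornified envelope proteins, were low or silent. Sprr2e had 54 and 31 counts in the knockdown libraries, against 4 and 5 in the controls. That was 2.75 and 1.60 CPM in the knockdown libraries and 0.205 and 0.252 CPM in the controls, and the lower knockdown value was 6.34 times the higher control value. Its fold in mean CPM was 9.52 (95% counting interval 4.79 to 21.5), the largest among the 8 listed genes with counts, on few control counts. Sprr2e passed the low-count filter only through the knockdown libraries. Of the 50-base windows in Sprr2e transcripts, 10.2% also occur in transcripts of Sprr2d, Sprr2f or Sprr2i, and 1.09% of the 100-base windows do, all in Sprr2i. All 3 of those genes had 0 counts in every library, and the counts of Sprr2e were whole.

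Sprr2g, annotated in GENCODE as a polymorphic pseudogene, had 112 and 69 counts in the knockdown libraries, against 40 and 31 in the controls. It averaged 4.64 ± 1.52 CPM in knockdown cells and 1.81 ± 0.345 CPM in control cells (SD, n = 2 each), a fold of 2.56 (95% counting interval 1.94 to 3.43). The lower knockdown library was 1.73 times the higher control. Sprr2h had 15 and 10 counts in the knockdown libraries, against 4 and 9 in the controls, a fold of 1.94 whose counting interval of 0.955 to 4.13 includes 1. Its libraries did not overlap, by a factor of 1.14, and Sprr2h passed the low-count filter only through the knockdown libraries. Leaving out single libraries gave log2 ratios of Sprr2h from 0.50 (without control 1) to 1.64 (without control 2), against 0.96 with all libraries.

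Sprr2d and Sprr2f had 0 counts in the knockdown libraries and 0 in the controls, which allows up to 3 counts over a group, or 0.0769 CPM in knockdown cells and 0.0763 CPM in control cells. They lie on either side of Sprr2e. At this depth no difference between the groups was detectable for them.

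Summed without Sprr1a, the Sprr genes listed had 9.23 and 5.67 CPM in the knockdown libraries, against 2.46 and 2.27 CPM in the controls (log2 ratio 1.66). With Sprr1a the sum was 2770 and 1793 CPM in the knockdown libraries and 1009 and 1605 CPM in the controls (log2 ratio 0.80). Sprr1a held 99.67% to 99.86% of this sum in every library. The listed Sprr genes took 0.277% and 0.178% of all counts in the knockdown libraries, against 0.1003% and 0.163% in the controls. Counting both families, 7 of the 10 genes had both knockdown libraries above both controls and 0 had both below. The genes tested as a whole had 26.4% above and 25.2% below, and as the 10 were chosen on this same contrast, nothing is read from their count.

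The promoters of 3 neighbouring Sprr2 genes are shown because 1 of them had counts and 2 had none although their sequences are close. Each is the 200 bases before the RefSeq start site (GRCm38.p6), read 5′ to 3′ on the gene's own strand, with matches to the AP-1 motif TGANTCA and to the TATA box TATAAA in capitals. Sprr2e lies at chr3:92351943-92352142, Sprr2d at chr3:92338940-92339139 and Sprr2f at chr3:92364987-92365186, all on the plus strand.
Sprr2e: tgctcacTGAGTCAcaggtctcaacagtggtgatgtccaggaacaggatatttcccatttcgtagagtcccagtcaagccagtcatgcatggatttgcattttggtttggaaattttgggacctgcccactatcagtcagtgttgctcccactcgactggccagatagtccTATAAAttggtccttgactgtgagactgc
Sprr2d: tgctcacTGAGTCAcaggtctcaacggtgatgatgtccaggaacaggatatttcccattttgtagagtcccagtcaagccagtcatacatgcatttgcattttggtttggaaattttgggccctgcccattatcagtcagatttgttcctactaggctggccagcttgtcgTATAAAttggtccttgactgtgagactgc
Sprr2f: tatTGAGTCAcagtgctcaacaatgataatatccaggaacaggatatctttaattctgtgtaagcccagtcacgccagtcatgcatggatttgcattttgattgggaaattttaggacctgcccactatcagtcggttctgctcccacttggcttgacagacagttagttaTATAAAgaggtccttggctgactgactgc
In Sprr2e and Sprr2d alike the AP-1 match stood at -193 to -187 from the start site and the TATA match at -29 to -24. In Sprr2f these were at -197 to -191 and -29 to -24. Over the 250 bases searched upstream, Sprr2d and Sprr2e were 89.3% identical, Sprr2d and Sprr2f 71.1%, and Sprr2e and Sprr2f 73.9%. The genes with 0 counts thus held the same AP-1 and TATA letters as Sprr2e.

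The promoters of Sprr1a and Padi3 follow, as those of the most abundant gene of each family. Sprr1a lies at chr3:92485882-92486081 and Padi3 at chr4:140810649-140810848, both on the minus strand, and the last bases shown for Sprr1a lie inside the GENCODE span of the gene.
Sprr1a: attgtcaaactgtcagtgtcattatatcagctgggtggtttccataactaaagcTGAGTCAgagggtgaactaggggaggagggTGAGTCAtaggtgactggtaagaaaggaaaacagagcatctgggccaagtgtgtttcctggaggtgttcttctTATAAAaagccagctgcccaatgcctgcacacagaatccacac
Padi3: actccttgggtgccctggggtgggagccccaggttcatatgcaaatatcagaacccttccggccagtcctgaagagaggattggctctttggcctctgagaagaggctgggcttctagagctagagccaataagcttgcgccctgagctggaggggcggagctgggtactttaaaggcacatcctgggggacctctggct
Sprr1a had AP-1 matches at -146 to -140 and -116 to -110 and a TATA match at -43 to -38, and its upstream AP-1 match overlapped a match to the antioxidant response element TGACNNNGC. Padi3 had no match to AP-1, TATA, the antioxidant element, the STAT motif TTCNNNGAA or the KLF motif CCNCNCCC in its 250 bases, which says only that these letters are not in that window. Motifs were read on both strands, except the TATA box, which was read on the gene's strand.

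RefSeq held a promoter for 9 of the 10 genes, all but Sprr2g, and for 14 Sprr and 5 Padi genes in all. AP-1 letters were in 9 of the 14 Sprr promoters and in 1 of the 5 Padi promoters, that of Padi4, against 6.75% of 32851 promoters. TATA letters were in 10 of the 14 Sprr promoters and again only in Padi4 among the 5 Padi promoters, against 7.59% of all promoters. The Sprr2 promoters with these letters resemble each other, at 60.1% (Sprr2f and Sprr2h) to 89.3% (Sprr2d and Sprr2e) identity. They are thus not independent cases to set against those shares. The other motifs were in 7.02% (STAT), 10.2% (antioxidant element) and 45.9% (KLF) of all promoters. A match of letters is a description and not evidence of binding.

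**Figure D2:**
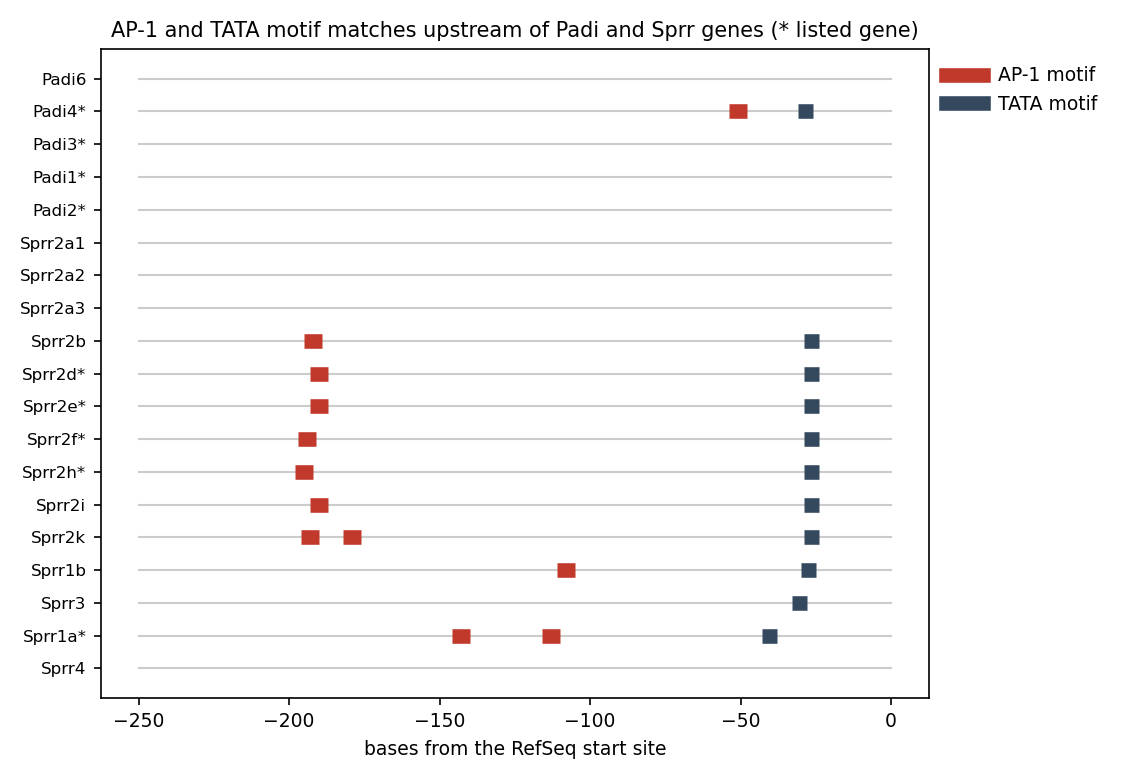
Positions of AP-1 and TATA letters in the 250 bases before the start site of the 14 Sprr and 5 Padi genes with a RefSeq promoter, in bases from the start site, with a star at listed genes. The matches of Sprr2d and Sprr2e stand at the same positions, and Padi3 has neither motif.

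The Sprr genes stand side by side on chromosome 3 (GRCm38 92215799 to 92500493, 17 annotated genes) and the Padi genes on chromosome 4 (140727355 to 140952586, 5 genes). Padi3 spans 140785365 to 140810648 on the minus strand, Sprr1a 92483952 to 92485895 on the minus strand and Sprr2e 92352143 to 92353449 on the plus strand. Of the 17 Sprr genes, 10 had both knockdown libraries above both controls, 0 had both below, and 6 had 0 counts in every library, against 26.4% above and 25.2% below among all genes tested. Of the 10, 4 are listed genes chosen on this contrast. Sprr2a1, Sprr2a2 and Sprr2j-ps passed the low-count filter only through the knockdown libraries, as did the listed Sprr2e and Sprr2h. Nothing is therefore read from this count. Among the 10 Sprr genes with over 3 counts, 9 were higher in knockdown 1 than in knockdown 2, while Padi genes with over 3 counts were higher in knockdown 1 in 3 of 4. Knockdown 1 thus had the higher level for most Sprr genes with over 3 counts, some of which share reads. The share of all genes higher in knockdown 1 is not given here, so nothing is read from these counts.

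**Figure D3:**
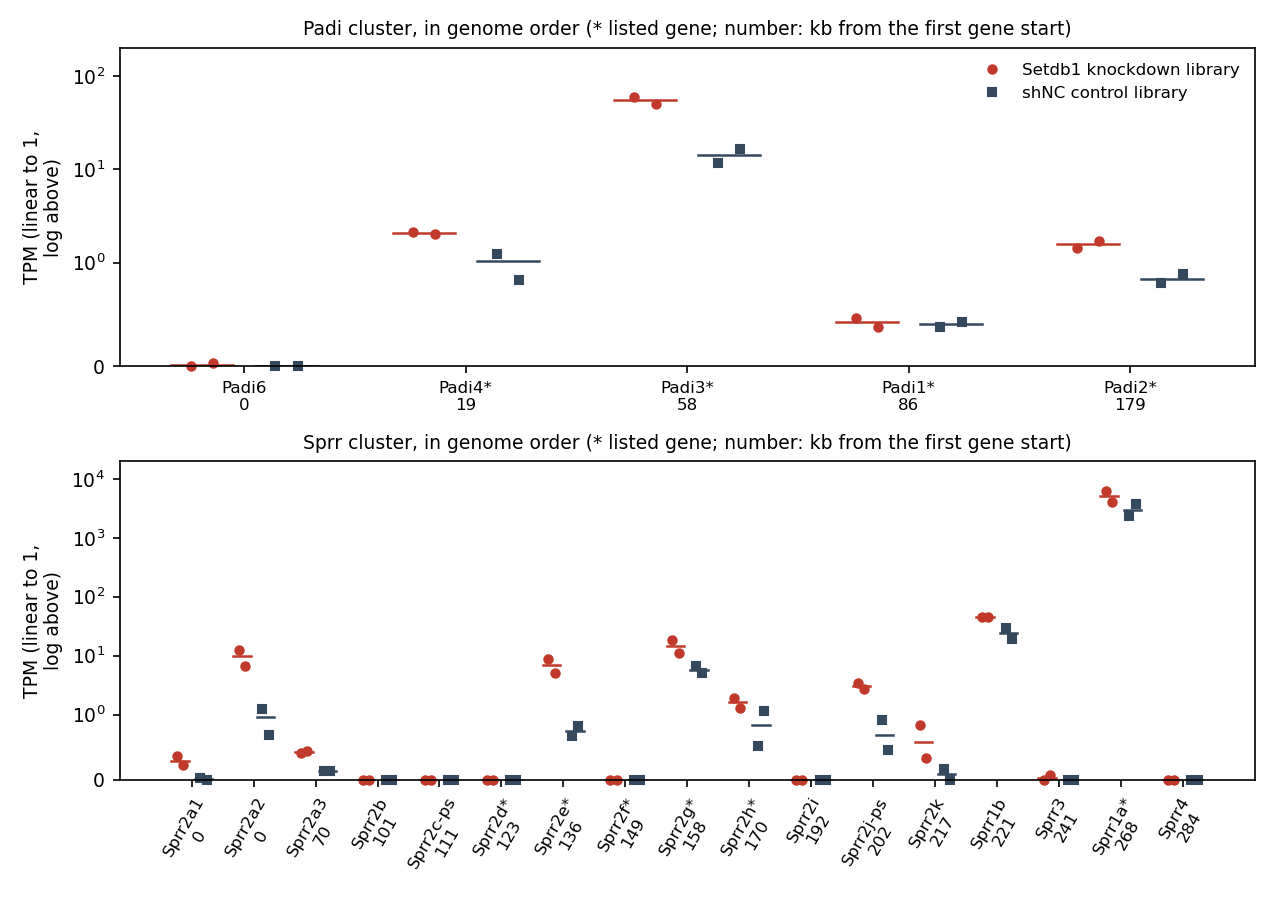
TPM of each Padi gene (upper panel) and Sprr gene (lower panel) in genome order, on an axis linear to 1 and logarithmic above, with 1 point for each library, knockdown left of control, and a line at each group mean. In the Sprr cluster Sprr1a reaches 6240 and 3997 TPM in the knockdown libraries and 2314 and 3731 TPM in the controls, and silent genes stand between expressed ones.

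Of the 11 other family genes on a list drawn up besides the 10, 4 passed the low-count filter and all 4 were called higher, against 4.2% of all genes. Sprr2a1, Sprr2a2 and Sprr2j-ps passed that filter only through the knockdown libraries, so their direction was fixed in advance, and nothing is read from the 4. For these 3 the counts are given without a test. Sprr1b, the sister gene of Sprr1a and a cornified envelope precursor as well, had 21.12 and 21.15 CPM in the knockdown libraries, against 13.3 and 8.68 CPM in the controls. This was a log2 fold change of 0.94 (SE 0.221, adjusted p = 0.0375 in edgeR), and it was not called without control 2 (adjusted p = 0.077) or by limma (adjusted p = 0.0743). Sprr1b varied between the controls and hardly between the knockdown libraries.

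Sprr2a2 had 92.92 and 50.1 counts in the knockdown libraries, against 8.8 and 5 in the controls, a count ratio of 10.3 with a 95% counting interval of 5.94 to 19.3. Sprr2a1 had 15.87 and 9.9 counts in the knockdown libraries, against 1.2 and 0 in the controls, a count ratio of 26.2 with an interval of 4.31 to 1075. The annotated spans of both genes overlap and their counts were fractional in 3 libraries each, so their separate values are uncertain. Sprr2j-ps had 23 and 18 counts in the knockdown libraries, against 6 and 3 in the controls, a count ratio of 4.59 (2.20 to 10.7). The remaining 7 were below the filter, 3 of them (Sprr2b, Sprr2i and Sprr4) at 0 in every library.

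Other genes of the same epidermal programme were counted to set beside the Padi and Sprr values. The epidermal differentiation complex holds the Sprr genes together with other envelope proteins, such as loricrin and involucrin, and fused S100 proteins, such as filaggrin. Of 38 further genes of that complex on the list, 37 had a row, 25 had 0 counts in every library and 3 could be tested. Of the 3, 0 were called by edgeR, DESeq2 or limma, and 1, Lce1h, was higher at an unadjusted edgeR p under 0.05. The controls of Lce1h alone would not have passed the low-count filter. Filaggrin (Flg) and loricrin (Lor), defining products of the granular layer, were at 0 in every library. Trichohyalin (Tchh), a hair follicle substrate of Padi3, had 5.56 and 5.57 CPM in the knockdown libraries, against 4.62 and 2.88 CPM in the controls (log2 fold change 0.57, edgeR adjusted p = 0.270). S100a3, a hair cuticle protein that Padi3 is known to citrullinate, had 8.06 and 7.27 CPM in the knockdown libraries, against 5.64 and 4.39 CPM in the controls (log2 fold change 0.61, edgeR adjusted p = 0.164). Of 13 S100 genes of the complex, 9 were tested and 0 called by any of the 3 tools, with a median log2 fold change of 0.28. At an unadjusted edgeR p under 0.05, 3 were higher and 0 lower, against 12.1% and 9.18% of all genes.

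Cornification genes, including transglutaminases, desmosomal proteins, proteases and lipid barrier enzymes, gave 0 calls among 13 tested of 32 by edgeR, DESeq2 or limma. Of these 13, 1 was higher and 1 lower at an unadjusted p under 0.05, and their median log2 fold change was 0.09. The keratinocyte transglutaminase Tgm1, which cross-links Sprr proteins, had 0.102 and 0.155 CPM in the knockdown libraries and 0.257 and 0.0505 CPM in the controls, below the filter. The unadjusted threshold was passed by 12.1% of all genes upward and 9.18% downward. DESeq2 called 4.53% of all genes higher and 2.46% lower, and limma on log2(TPM + 1) 1.91% and 0.694%.

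Of 17 genes whose proteins are known to be citrullinated, 12 were tested, 2 were called higher and 0 lower, against 4.2% and 1.76% of all genes, and the median log2 fold change was 0.09. DESeq2 called 2 higher and 1 lower. At an unadjusted edgeR p under 0.05, 4 were higher and 1 lower, against 12.1% and 9.18% of all genes. Among the 4 was Mbp, with 1.02 and 1.44 CPM in the knockdown libraries, against 0.564 and 0.353 CPM in the controls. The controls of Mbp alone would not have passed the low-count filter. Vimentin (Vim), an intermediate filament protein, had 469 and 417 CPM in the knockdown libraries, against 190 and 219 CPM in the controls. It rose by a log2 fold change of 1.12 (SE 0.141, edgeR adjusted p = 0.00211). The fibrinogen beta chain (Fgb), a clotting factor made by hepatocytes, had 104 and 68.5 CPM in the knockdown libraries, against 38.2 and 42.9 CPM in the controls. It rose by 1.09 (SE 0.199, edgeR adjusted p = 0.0123) and was not called by limma (adjusted p = 0.0841). RNA of a substrate says nothing of its citrullination, which was not measured.

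Among 32 transcription factors known from keratinocyte differentiation, 26 could be tested, of which 1 rose and 1 fell, against 4.2% and 1.76% of all genes, and the median log2 fold change was 0.10. DESeq2 called 2 higher and 1 lower. At an unadjusted edgeR p under 0.05, 6 were higher and 4 lower, against 12.1% and 9.18% of all genes. Among the 6 was Zfp750, with 0.612 and 0.516 CPM in the knockdown libraries, against 0.257 and 0.101 CPM in the controls. It passed the low-count filter only through the knockdown libraries, so its direction was fixed in advance. Cebpb, a factor of hepatocytes and suprabasal keratinocytes, had 44.2 and 35.6 CPM in the knockdown libraries, against 57.9 and 70.3 CPM in the controls. It fell by 0.68 on the log2 scale (SE 0.168, edgeR adjusted p = 0.0450), and the call ended without control 2 (0.0964), without knockdown 2 (0.167) and in limma (0.0814). Jun and Fos family genes, whose products bind AP-1 letters, had edgeR adjusted p-values from 0.111 (Fosl1) to 0.972 (Fosl2) on this list. Fosl1 was among the 4 lower, with 76.2 and 77.7 CPM in the knockdown libraries, against 100.5 and 102.5 CPM in the controls. Fos varied widely within both groups, with 5.92 and 20.2 CPM in the knockdown libraries and 7.03 and 21.3 CPM in the controls.

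**Figure D4:**
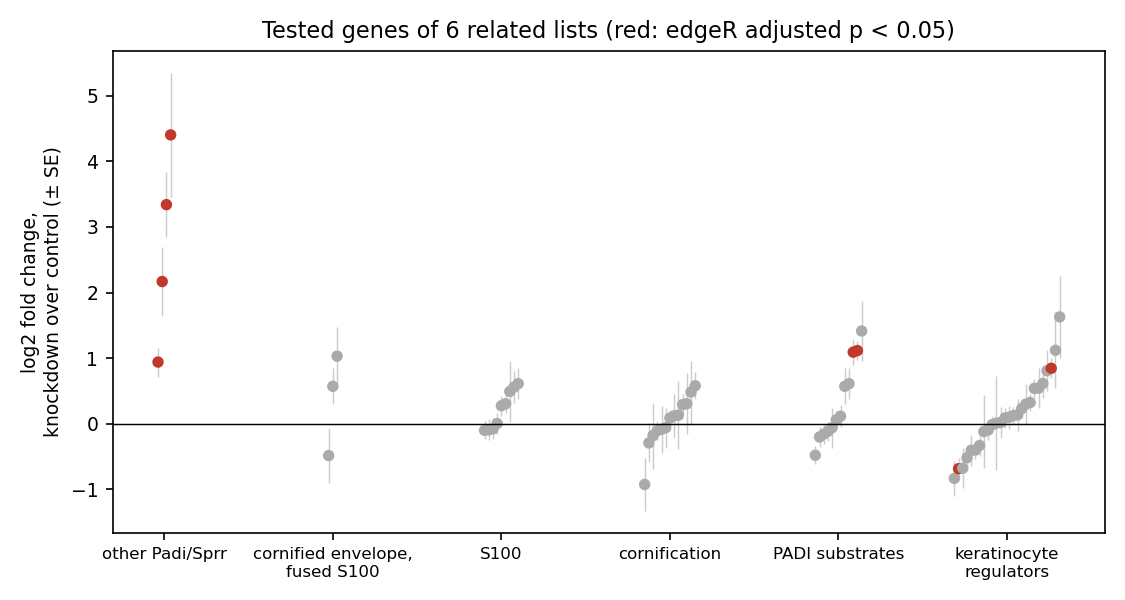
Log2 fold change (knockdown over control) of each tested gene of the 6 related lists, with bars for the SE, called genes in red and a line at 0. Called genes outside the family list are the citrullination substrates Vim and Fgb and, among the factors, Cebpb (lower) and 1 higher gene; 3 of the 4 family genes shown passed the low-count filter only through the knockdown libraries, so their red points carry no comparison with the other lists.

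Markers of cell types were read beside these values. Of 8 keratinocyte markers, 4 were tested and 1, Krt14, a keratin of basal keratinocytes, was called higher, against 4.2% of all genes. Krt14 had 6.84 and 8.10 CPM in the knockdown libraries, against 1.03 and 1.41 CPM in the controls (a log2 difference of 2.61, SE 0.290, edgeR adjusted p = 0.00113). Its partner Krt5 had 13.1 and 13.2 CPM in the knockdown libraries and 12.5 and 13.6 CPM in the controls. The summed level of the 8 was 24.8 and 26.0 CPM in the knockdown libraries, against 17.9 and 19.8 CPM in the controls. Krt1 was at 0, and Trp63, the factor that defines basal keratinocytes, had 4 and 7 counts in the knockdown libraries and 3 and 3 in the controls.

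Granulocyte and macrophage markers, relevant to Padi4, summed over 10 genes to 18.4 and 20.3 CPM in the knockdown libraries, against 10.4 and 8.02 CPM in the controls. Cd68 and Csf1r, macrophage genes, were the 2 tested, with log2 fold changes of 0.80 and 1.52 (edgeR adjusted p = 0.0561 and 0.0811). DESeq2 called 1 of them higher, against 4.53% of all genes. The granulocyte genes Mpo, Elane and S100a9 were at 0 in every library. Ly6g, on the same list, had 18 and 7 counts in the knockdown libraries, against 3 and 9 in the controls. Itgam had 6 and 9 counts in the knockdown libraries, against 2 and 5 in the controls, and both genes were below the filter. The 10 hepatocyte and hepatoma markers summed to 5086 and 4630 CPM in the knockdown libraries and 4250 and 4441 CPM in the controls. Among 8 tested, Alb was called higher (log2 fold change 0.94) and Hnf4a lower (-0.60). Over all genes, edgeR called 4.2% higher and 1.76% lower, the shares to set beside each marker list here. Ttr and Apoa1, abundant in hepatocytes, were nearly absent, with at most 7 counts in any library. Cholangiocyte markers summed to 80.8 and 86.0 CPM in the knockdown libraries and 79.3 and 76.4 CPM in the controls. Of 4 tested, Epcam was called higher (log2 fold change 1.06). Krt7 and Krt19 were higher and not called (0.80 and 1.75, edgeR adjusted p = 0.0585 and 0.118). Krt19 passed the low-count filter only through the knockdown libraries. Sox9, the most abundant of the 4, went the other way, with 43.5 and 47.1 CPM in the knockdown libraries, against 59.6 and 57.5 CPM in the controls (edgeR adjusted p = 0.165). Fibroblast markers summed to 1672 and 1649 CPM in the knockdown libraries and 1461 and 1544 CPM in the controls, with Col1a1 called higher by edgeR (log2 fold change 2.17) and not by limma, of 3 tested. Nearly all of this sum was Dcn, with 1648 and 1634 CPM in the knockdown libraries and 1448 and 1525 CPM in the controls (edgeR adjusted p = 0.619). Col1a2 and Lum had at most 1 count in any library. The part of the moving marker sums in the Padi and Sprr values was not tested.

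Genes around the clusters were tested to see whether the difference extended beyond the families. Within 1 Mb of the Padi cluster, 27 other genes were tested, 1 was called higher and 0 lower, or 3.7% against 4.2% of all genes higher. That gene, Klhdc7a, which encodes a kelch-domain protein, lies 759 kb away. It had 9.28 and 10.16 CPM in the knockdown libraries, against 2.10 and 1.92 CPM in the controls (a log2 difference of 2.27, SE 0.244, edgeR adjusted p = 9.26e-04). The genes next to the cluster, Rcc2 and Sdhb, had log2 fold changes of -0.03 and -0.30 (adjusted p = 0.933 and 0.249 in edgeR). Within 500 kb 15 genes were tested around the Padi cluster and 4 around the Sprr cluster, with 0 called by edgeR, DESeq2 or limma. At an unadjusted edgeR p under 0.05, 2 were higher and 1 lower around Padi, and 1 was higher around Sprr. Of all genes, 12.1% were higher and 9.18% lower at that threshold. Of the 2, Gm13055 (0.561 and 0.516 CPM against 0.0513 and 0.151 in the controls) passed the low-count filter only through the knockdown libraries. The 1 around Sprr, Lce1h, had 1.38 and 1.34 CPM against 0.924 and 0.404, so its controls alone would not have passed. Within 1 Mb of the Sprr cluster 5 genes were tested, 0 were called by edgeR, DESeq2 or limma, and 1 had an unadjusted edgeR p under 0.05. Setdb1 itself lies 2.82 Mb from the Sprr cluster.

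The files also list loci named by position. Within 1 Mb of the Padi cluster, 4 of 10 such loci reached 10 summed counts. Near Klhdc7a, a pair of these on the plus strand of chromosome 4 had more counts in both knockdown libraries than in both controls, given here without a test. The locus at 139954446 to 139954964 had 39.99 and 30.22 counts in the knockdown libraries, against 2.09 and 0 in the controls, and the locus at 139954968 to 139955792 had 98.38 and 94.09 counts against 1.91 and 2.48. The locus at 141208873 to 141209172 had 4.76 and 5.65 counts in the knockdown libraries and 5.52 and 3.81 in the controls. The remaining one is the locus in a Padi2 intron described above. Within 1 Mb of the Sprr cluster, 5 of 71 such loci reached 10 summed counts. The nearest of these, 24.6 kb away, had 18.28 and 14 counts in the knockdown libraries and 19.43 and 19.21 in the controls. In 3 of the others, 573 to 583 kb away, both knockdown libraries lay above both controls on few counts. They had 5.34 and 4.67, 9.52 and 13.95, and 7.78 and 2 counts in the knockdown libraries, against 0 and 1, 4.84 and 0, and 0 and 1 in the controls. The last of the 5 had 3 and 0 counts in the knockdown libraries and 2.9 and 6.59 in the controls. The 3 higher loci and the pair near Klhdc7a reached 10 summed counts mostly through the knockdown libraries. The share of all such loci with both knockdown libraries above both controls is not given here, so nothing is read from these.

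**Figure D5:**
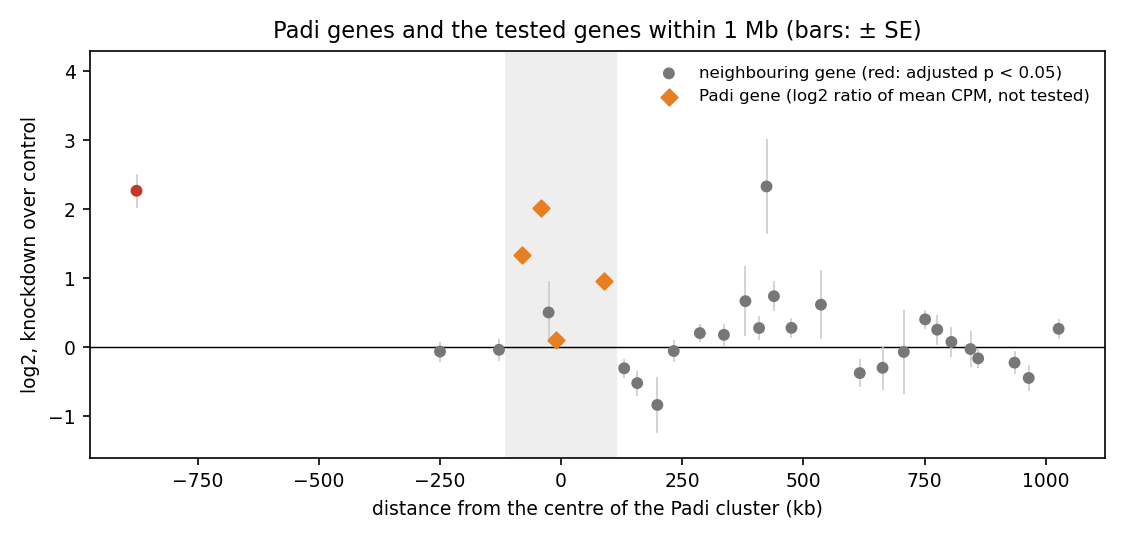
Log2 fold change (knockdown over control, bars for the SE) of the 27 tested genes around the Padi genes against distance in kb from the centre of the cluster, which is shaded, with the 4 listed Padi genes as diamonds at their log2 ratio of mean CPM. Klhdc7a, in red at the far left with a log2 fold change of 2.27, is the called gene, and Padi3 stands at 2.02.

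Genes whose profile lay closest to each listed gene were found by the Euclidean distance of log2 CPM over the 4 libraries, each centred on its control mean, among 11731 genes. For Padi3 the closest were 1810020O05Rik (0.093), Cdhr2 (0.152) and Drc1 (0.223). Those closest to Padi4 were Shld1 (0.101), Entpd7 (0.130) and Pak6 (0.156), and those closest to Padi2 were Csf2 (0.063), Stradb (0.079) and 9130023H24Rik (0.085). Padi1 lay near Rusc2 (0.034), Mgat3 (0.042) and Golm1 (0.043). Sprr1a was nearest to H2-Q6 (0.082), Zcwpw1 (0.140) and Smim6 (0.149), and Sprr2h to Smim6 (0.038), H2-Q6 (0.117) and Grhl2 (0.150). Sprr2e was nearest to Kif1a (0.135), 1700028E10Rik (0.331) and Gbp4 (0.356), and Sprr2g to Dmpk (0.237), Gbp3 (0.250) and Psors1c2 (0.257). Sprr1a and Sprr2h thus shared 2 of their 3 closest genes. With 4 libraries such distances describe these samples alone.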

How the data were processed

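Total RNA of Hepa1-6 cells went into 4 libraries prepared by the NEBNext Ultra Directional method, per the labels' protocols. The submitters' processing notes name GRCm38, mm10, STAR, RSEM, FastQC and DESeq2, with no version. Strand setting and annotation release: not given in the sources used here. Per the file headers, every deposited file has 115821 rows with an expected count, TPM and FPKM. Genes with symbols took 54838 rows, and 60983 rows were loci named by position. In the deposited expected counts a read fitting several features is divided among these, which can give fractions (called whole within 0.005). The deposited TPM values are scaled per transcript length, and the deposited FPKM values were not used. Values of near-identical genes are therefore less certain.

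Expected counts were rounded and tested in R 4.3.3 by the quasi-likelihood F-test of edgeR 4.0.16 (TMM scaling, filterByExpr, group alone), with Benjamini-Hochberg adjustment over 12821 genes. The test was checked on simulated counts. Limma 3.58.1 and DESeq2 1.42.0 were alternatives. Coordinates came from GENCODE M21 (GRCm38, 54723 identifiers matched), promoters from RefSeq. Mean chi-square per gene was 23.6 between the knockdown libraries and 26.0 between the controls, above sampling noise. Genes and lists were chosen with earlier results of these data known. Named list genes passed the test, with at most 4 for each list and direction, and at most 6 called genes around each cluster were named. The other list genes named (Flg, Lor, Tchh, S100a3, Tgm1, Mbp, Zfp750, Lce1h, the AP-1 factors and cell markers), and Rcc2, Sdhb and Gm13055, were chosen after their values were seen. The grounds were a known tie to Padi and Sprr proteins, their place or the way they passed the low-count filter. The values of 1 called list gene are not reported here.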

Additional observations from a re-analysis of the deposited data

How the results depend on the processing

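The listed genes with counts kept their direction under the settings tried, except Padi1, whose log2 ratio was 0.11 and ranged from -0.05 (without knockdown 1) to 0.25 when a library was left out. Of 277 recomputed values, 219 kept their side of the threshold or moved by less than the spread between replicates, the change of sign of Padi1 being among these, while 31 moved further and 27 kept their direction and no longer passed. Of the 7 related-list genes called higher with all libraries, 3 passed the low-count filter only through the knockdown libraries. Without the low-count filter edgeR tested 21511 genes and called 0 higher and 0 lower, with 3379 at an unadjusted p under 0.05, 0 in the related lists (higher or lower) and 0 around the clusters, and Setdb1 had an adjusted p of 0.0877 (log2 fold change -2.49). Limma on log2(TPM + 1) called 245 higher and 89 lower, with 3 and 0 in the related lists, and on log2(TPM + 0.1) 242 and 85, with 3 and 0, against 538 and 226, with 7 and 1, in edgeR. DESeq2 called 2 list genes lower. Leaving out 1 library gave 543 to 982 higher and 197 to 695 lower genes, 5 to 11 list genes higher and 1 to 5 lower, and 1 to 5 genes higher and 0 to 1 lower around the clusters. The highest counts came without control 1 (982 higher, 695 lower, 11 list genes higher, 5 genes around the clusters higher), and leaving out knockdown 1 gave 451 lower genes, 5 of them in the lists. Within 500 kb of the clusters 0 genes were called higher. Padi4 in TPM had a log2 ratio of 1.02. The replicate number as a block (replicate block) gave 584 higher and 278 lower genes, of which, in both directions, 723 were also called without it. The numbers mark no stated pairing, and deviations of same-numbered libraries correlated at -0.183. The crossed pairing as a block, added after seeing the data, called 1352 higher and 987 lower, with 13 and 7 in the lists and 4 and 1 around the clusters. Genes with few counts, Sprr2h and Padi1 among them, are limited by depth.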
